A study of Rattus norvegicus with 9 samples.

Results

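RNA sequencing of tibia from male Sprague Dawley rats (Rattus norvegicus) was used to follow 10 fast-fibre sarcomere genes: Myh4, Myh1, Myh2, Mybpc2, Mylpf, Acta1, Tnnt3, Tnni2, Tnnc2 and Actn3. They are 10 of the 23768 genes in the deposited tables, and all 10 passed the filter on low counts. They were picked by symbol with earlier results of these 9 libraries known, so their levels and differences are descriptions and carry no test. The 3 groups of 3 libraries were PMLGH (replicates 2, 3 and 4), GelMA (replicates 2, 3 and 4) and Model (replicates 1, 2 and 5), and each list of values below keeps that order of replicates. PMLGH and GelMA name treatments, and GelMA usually stands for gelatin methacryloyl, a modified gelatin that is set into a hydrogel. The labels give no wording for PMLGH, no account of what was done to the Model group, and no age or time of sampling. The study's title speaks of a peptide made to act like the LOX enzyme, of diabetes and of bone repair. No label says that each replicate is a separate rat, so the spread between libraries may be technical in part.

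The sarcomere is the repeating contractile unit of striated muscle. Thick filaments of myosin pull on thin filaments of actin, the troponin complex on the thin filament switches contraction on when calcium binds, and alpha-actinin anchors the thin filaments at the Z-disc. Fast fibres build these parts from their own gene copies, and Myh4, Myh1 and Myh2 encode the heavy chains of fibre types IIB, IIX and IIA. Bone contains no skeletal muscle fibres. Acta1, the skeletal alpha-actin, serves fast and slow fibres alike, so it marks skeletal muscle and not a fast fibre.

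The 3 fast heavy chain genes lie side by side on rat chromosome 10, in the order Myh3, Myh2, Myh1, Myh4, Myh8 and Myh13 in the GRCr8 RefSeq annotation. Windows before their annotated starts are shown because they hold a stretch in common: capitals mark a run of 20 bases, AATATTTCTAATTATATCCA, that is identical in Myh4, Myh1 and Myh2. The fourth window is that of Acta1, the member with the highest level, with its CArG box, which starts 94 bases before the start, in capitals. The table's start of Myh1 lies 102 bases inside the RefSeq gene record, so the Myh1 stretch is cut where that record begins: it has 148 bases and covers bases 250 to 103 before that start. The windows are chr10:52421898-52422147 for Myh4, chr10:52384662-52384809 for Myh1 and chr10:52355489-52355738 for Myh2, all on the plus strand, and chr19:68784195-68784444 for Acta1 on the minus strand (GRCr8, RefSeq). Each is written 5′ to 3′ along its gene.
Myh4: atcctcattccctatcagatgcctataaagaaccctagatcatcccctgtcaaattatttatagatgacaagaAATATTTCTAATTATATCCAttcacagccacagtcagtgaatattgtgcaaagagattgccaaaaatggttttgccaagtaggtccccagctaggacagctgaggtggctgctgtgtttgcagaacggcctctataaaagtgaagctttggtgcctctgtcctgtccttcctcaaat
Myh1: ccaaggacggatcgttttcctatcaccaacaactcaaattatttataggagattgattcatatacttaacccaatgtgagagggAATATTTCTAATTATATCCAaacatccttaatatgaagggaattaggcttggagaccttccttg
Myh2: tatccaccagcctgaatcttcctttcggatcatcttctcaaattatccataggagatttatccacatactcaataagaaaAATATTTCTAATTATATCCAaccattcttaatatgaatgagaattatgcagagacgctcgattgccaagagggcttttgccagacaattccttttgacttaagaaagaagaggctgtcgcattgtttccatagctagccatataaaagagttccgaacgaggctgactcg
Acta1: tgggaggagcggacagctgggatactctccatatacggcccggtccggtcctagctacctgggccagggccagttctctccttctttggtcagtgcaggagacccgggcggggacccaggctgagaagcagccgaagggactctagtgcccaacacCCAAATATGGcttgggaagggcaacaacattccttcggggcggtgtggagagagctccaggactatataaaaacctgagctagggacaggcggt

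The shared run began 177 bases before the start in Myh4, 170 in Myh2 and 166 in Myh1, which in Myh1 is 64 bases before the gene record. Of 33469 RefSeq promoter windows of 250 bases before the start, 5 held it. The other 2 belong to LOC102555216, a gene record that overlaps Myh1 in GRCr8. Of the 10 members, 9 had a window, Mylpf through its RefSeq name Myl11. A further search covered 5 short motifs on both strands. The E-box, CANNTG, was found in 6 of the 9 windows and in 65.5% of all windows. The MEF2 motif was found in Myh1 and Myh4 and in 2.96% of all windows, and both matches read TTATTTATAG and overlap a reverse-strand TATAAA. The CArG box was found in Myh4 (CCAAAAATGG) and Acta1 (CCAAATATGG) and in 1.5% of all windows. TATAAA was found in 5 of the 9 windows and 12.9% of all, and the MCAT motif CATTCC in 4 of the 9 and 12.1% of all. The MCAT match of Myh1 and the TATAAA match nearest its start lie in the bases that are not printed. A match of letters is a description and does not show that a factor binds there.

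Total counts per library ran from 34571478 to 37166383. Member counts ran from 402, for Myh2 in Model replicate 1 (exact Poisson 95% interval 363.7 to 443.3, counting error only), to 37187. For most members counting error is small beside the spread between libraries. It is less so for Myh2 in PMLGH libraries, with 997 to 1126 counts and a coefficient of variation of 5.84% in FPKM. Levels are CPM, a gene's counts set against the total of its library after TMM scaling, or FPKM, the deposited values per length of gene. The heavy chain genes are near-identical copies, as are the striated actins, and how reads that match several genes were assigned is unknown, so values of single copies are uncertain. Neither is the strand of counting given, so reads of Myh1 and of LOC102555216 cannot be told apart where they overlap. LOC102555216 had 13 to 83 counts in PMLGH libraries, 89 to 158 in GelMA libraries and 39 to 65 in Model libraries, against 2968 and more for Myh1 in any PMLGH library. In bulk tissue, fewer muscle fibres and less RNA per fibre cannot be told apart.

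Model replicate 2 stood apart from the other Model libraries among these genes. Its CPM relative to the mean of Model replicates 1 and 5 ran from 46.6% for Mylpf, 54.8% for Tnnc2 and 60% for Tnni2 up to 134% for Myh1 and 168% for Myh2. On the log2 scale that is a range of 1.85 between members, against 0.22 to 0.54 for the treated libraries measured the same way. Model replicates 1 and 5 had 0.975 and 1.01, but the mean each was set against includes Model replicate 2. The slow-fibre genes Tnnt1, Mybpc1, Tnnc1, Myl2, Myh7 and Tnni1 were higher in it. They were at 123%, 128%, 145%, 153%, 200% and 251% of the mean FPKM of Model replicates 1 and 5, in that order. Myh7 and Tnni1 were thinly counted, with 26 counts for Myh7 in Model replicate 1 and 12 for Tnni1 in Model replicate 5. The fast genes Myl1 and Pvalb were at 51.3% and 38.3%. Values against Model are therefore also given without this library for the members, and for the gene lists in part.

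Together the 10 genes took 0.102% ± 0.015 of all counts in PMLGH libraries, 0.276% ± 0.035 in GelMA libraries and 0.066% ± 0.011 in Model libraries (SD, n = 3 each). The PMLGH libraries, at 0.0857% to 0.116%, all lay below the GelMA libraries, at 0.252% to 0.317%, and above the Model libraries, at 0.0532% to 0.0753%. The members were thus highest in GelMA, lowest in Model, and in PMLGH between them and nearer to Model.

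**Figure D1:**
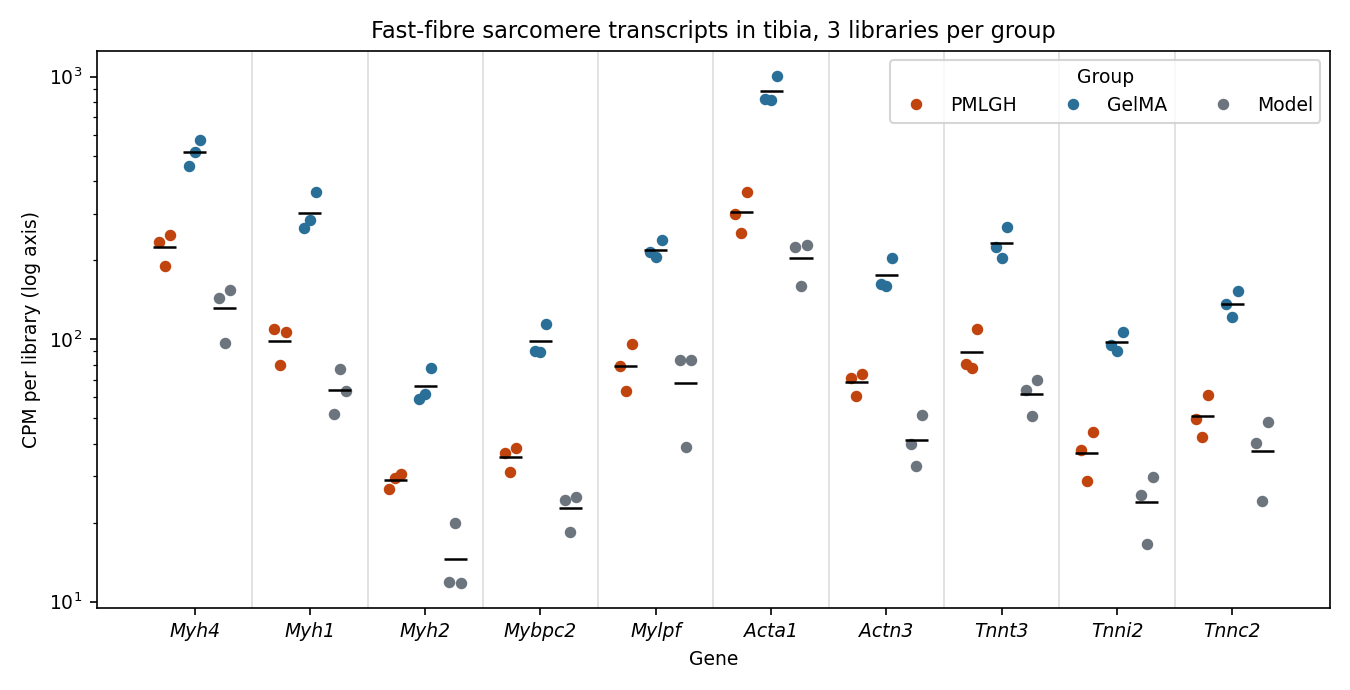
CPM (log axis) of each of the 10 genes in every library, grouped by gene, with PMLGH left, GelMA in the middle and Model right; points are libraries and bars are group means (n = 3). GelMA points lie above all PMLGH and Model points for every gene, and PMLGH and Model points overlap for Tnni2, Tnnc2 and Mylpf.

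Among the thick filament genes, Myh4, the heavy chain of the fastest fibres, had 234.7, 189.3 and 250.4 CPM in PMLGH libraries, 456.6, 514.2 and 573.7 CPM in GelMA libraries and 143.4, 96.72 and 153.9 CPM in Model libraries. The groups did not overlap, with GelMA high and Model low. Its log2 fold change was 0.78 ± 0.14 (SE) for PMLGH against Model, 1.97 ± 0.15 for GelMA against Model and -1.20 ± 0.14 for PMLGH against GelMA. Myh1, the IIX heavy chain, had 109.6, 80 and 106.5 CPM in PMLGH libraries, 264.8, 283.7 and 362.1 CPM in GelMA libraries and 51.79, 76.7 and 63.26 CPM in Model libraries. PMLGH replicate 3 and Model replicate 2 came close to each other, and the groups still did not overlap. Myh1 had the widest span of the members between GelMA and the other groups, at 2.25 ± 0.15 against Model for GelMA and -1.62 ± 0.14 for PMLGH against GelMA, with 0.63 ± 0.14 for PMLGH against Model.

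Myh2, the IIA heavy chain, had the lowest mean CPM of the members in each group, with 26.91, 29.51 and 30.69 CPM in PMLGH libraries, 59.35, 61.86 and 77.81 CPM in GelMA libraries and 11.86, 19.91 and 11.83 CPM in Model libraries. It had the largest log2 fold change of the members for PMLGH against Model, 1.00 ± 0.16, a 2-fold difference. For GelMA against Model it was 2.19 ± 0.16 and for PMLGH against GelMA -1.19 ± 0.15. No groups overlapped, and within Model it was replicate 2 that was high, where Mybpc2 and Tnni2 lay below it.

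Mybpc2, the fast form of myosin-binding protein C, which sits on the thick filament, had 36.81, 31.29 and 38.43 CPM in PMLGH libraries, 90.33, 89.71 and 114.6 CPM in GelMA libraries and 24.42, 18.47 and 25.04 CPM in Model libraries. Its log2 fold changes were 0.65 ± 0.12 for PMLGH against Model, 2.12 ± 0.12 for GelMA against Model and -1.47 ± 0.12 for PMLGH against GelMA, with no overlap between groups. Mylpf, the regulatory light chain of fast myosin, had 78.7, 63.66 and 95.45 CPM in PMLGH libraries, 215.1, 205.2 and 238.1 CPM in GelMA libraries and 82.94, 38.71 and 83.21 CPM in Model libraries. GelMA was high in all 3 libraries, while PMLGH and Model overlapped: 2 Model libraries lay above PMLGH replicates 2 and 3. The log2 fold change of Mylpf was 0.22 ± 0.21 for PMLGH against Model and -0.09 without Model replicate 2, so its direction between these groups rests on that library. Against Model it was 1.69 ± 0.21 for GelMA, and for PMLGH against GelMA it was -1.47 ± 0.21.

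Among the thin filament genes, Acta1 had 300.2, 254.1 and 364.1 CPM in PMLGH libraries, 820.3, 818.2 and 1005 CPM in GelMA libraries and 223.8, 158.9 and 227.7 CPM in Model libraries. No groups overlapped, and the log2 fold changes were 0.59 ± 0.14 for PMLGH against Model, 2.11 ± 0.14 for GelMA against Model and -1.53 ± 0.14 for PMLGH against GelMA. Tnnt3, the fast troponin T that ties the complex to tropomyosin, had 80.32, 77.36 and 109.5 CPM in PMLGH libraries, 224.5, 204.3 and 268.4 CPM in GelMA libraries and 64.24, 50.93 and 69.8 CPM in Model libraries. PMLGH replicate 4 was high within its group, and no groups overlapped. Its log2 fold change for PMLGH against Model was 0.53 ± 0.14.

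Tnni2, the fast inhibitory subunit, had 37.73, 28.84 and 44.21 CPM in PMLGH libraries, 94.86, 89.98 and 106.7 CPM in GelMA libraries and 25.6, 16.58 and 29.85 CPM in Model libraries. Model replicate 5 lay above PMLGH replicate 3, so these 2 groups overlapped. Tnnc2, the fast calcium sensor, had 49.66, 42.56 and 61.22 CPM in PMLGH libraries, 136, 121.4 and 152.5 CPM in GelMA libraries and 40.17, 24.19 and 48.4 CPM in Model libraries, and PMLGH and Model overlapped here too. For PMLGH against Model the log2 fold change was 0.62 ± 0.17 for Tnni2 and 0.45 ± 0.18 for Tnnc2, and without Model replicate 2 it was 0.39 for Tnni2 and 0.19 for Tnnc2. The 3 troponin genes were alike in the other comparisons, at 1.86 to 2.02 for GelMA against Model and -1.42 to -1.38 for PMLGH against GelMA.

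Actn3, the Z-disc alpha-actinin of fast fibres, had 71.22, 60.51 and 73.92 CPM in PMLGH libraries, 162.6, 159.1 and 203 CPM in GelMA libraries and 39.82, 32.91 and 51.22 CPM in Model libraries. The 3 groups were apart, with log2 fold changes of 0.73 ± 0.13 for PMLGH against Model, 2.08 ± 0.13 for GelMA against Model and -1.35 ± 0.13 for PMLGH against GelMA.

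**Figure D2:**
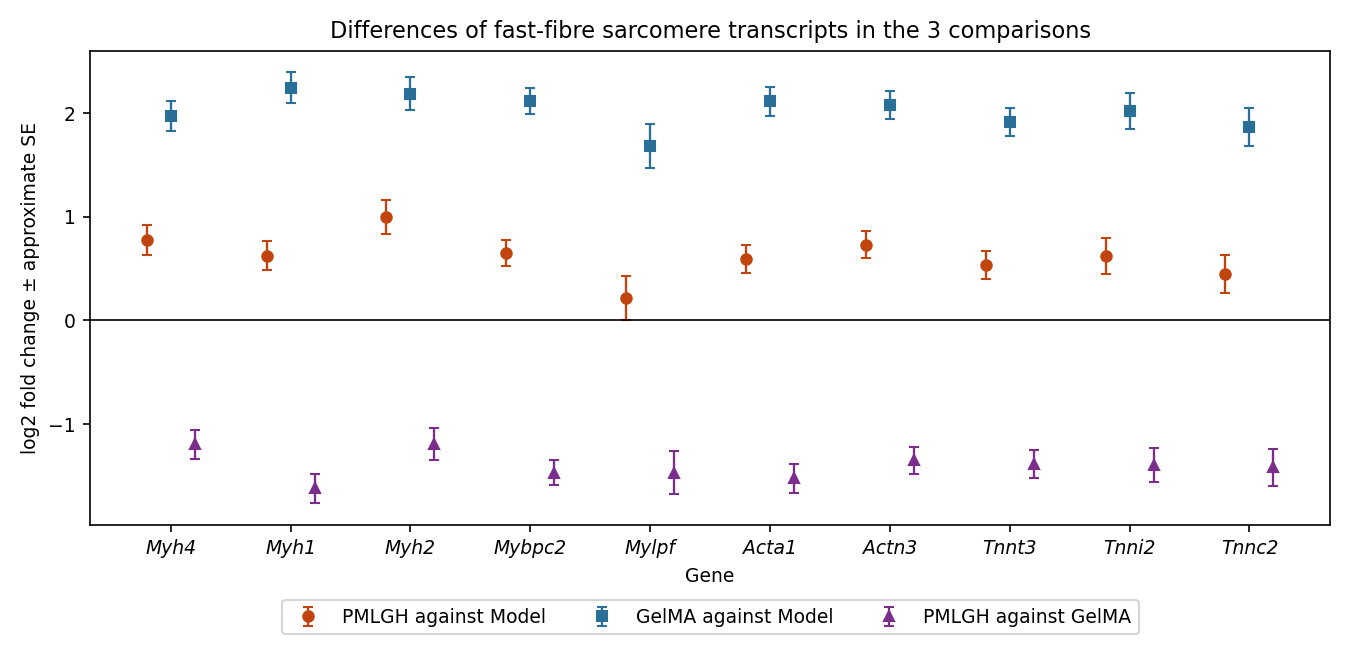
Log2 fold change ± approximate SE of each gene in the 3 comparisons (edgeR, 3 libraries per group); circles are PMLGH against Model, squares GelMA against Model and triangles PMLGH against GelMA. The circles lie between 0.22 and 1.00, the squares between 1.69 and 2.25 and the triangles between -1.62 and -1.19.

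Model replicate 2 moved the members unequally. Without it, the log2 fold changes for PMLGH against Model were 1.27 for Myh2 and 0.76 for Myh1, further from 0 than with it, and 0.57 for both Myh4 and Actn3, 0.50 for Mybpc2, 0.42 for Acta1 and 0.39 for Tnnt3, nearer to 0. For GelMA against Model they ran from 1.39 for Mylpf to 2.47 for Myh2.

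For PMLGH against Model, the median log2 fold change of the members was 0.62, a fold of 1.54, beside a median of 0.02 over all 16816 genes tested. At an adjusted p under 0.05 in edgeR's quasi-likelihood test, 8 of 10 members were called higher and Tnnc2 and Mylpf were not called. Of all genes tested, 27.5% were called in this comparison and 15.7% were called higher. Libraries did not overlap for 7 of the 10, PMLGH being higher, as for 21.1% of all genes. Without Model replicate 2 the median was 0.46 and 8 members were called, beside 5649 of all genes against 4631 with that library. Without PMLGH replicate 4 the calls of Tnnt3 and Tnni2 were lost, and without Model replicate 5 Tnnc2 gained one.

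For GelMA against Model, the median was 2.05, a fold of 4.14, beside 0.03 over all genes. All 10 members were called higher and none overlapped, where 22.6% of all genes were called, 12.7% were called higher and 19.8% were higher without overlap. Without Model replicate 2 the median was 1.86 and 10 were called, beside 5058 of all genes against 3804 with that library. For PMLGH against GelMA, the median was -1.41, so PMLGH levels were 0.377 times those in GelMA, beside a median of 0.00 over all genes. All 10 were called lower without overlap, where 3.44% of all genes were called, 1.64% were called lower and 11.4% were lower without overlap. The members were chosen with such differences known, so nothing is read from these counts. The comparisons share libraries: Model serves in both comparisons against it, and each treated group in 2 of the 3.

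Per length of gene, Acta1 was the most abundant member, at 212.2 ± 36.7 FPKM in PMLGH, 621.8 ± 80.2 in GelMA and 139.6 ± 25.6 in Model libraries (SD, n = 3 each). The order of mean FPKM was Acta1, Mylpf, Tnnc2, Tnnt3, Tnni2, Myh4, Actn3, Myh1, Mybpc2 and Myh2, and 8 of the 9 libraries showed it exactly. The exception was Model replicate 2, where Tnnt3 passed Tnnc2 and Myh1 passed Actn3. Of the 9 pairs of neighbours in this order, the ranges of mean ± SD overlapped for 3 in PMLGH, 3 in GelMA and 7 in Model. The neighbours Tnnc2 and Tnnt3, and Tnnt3 and Tnni2, overlapped in this way in every group, and Mybpc2 and Myh2 stood clear of their neighbours in all of them. Within a library the order was steadier, with Tnnt3 above Tnni2 in all 9 libraries and Tnnc2 above Tnnt3 in 8.

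Set against Acta1 within each library, as a percentage of its FPKM, the members varied to differing degrees. Mybpc2 was 4.47% ± 0.38 of Acta1 in PMLGH, 4.25% ± 0.093 in GelMA and 4.26% ± 0.15 in Model libraries. Tnnc2 was 33.5% ± 0.29 in PMLGH, 31.2% ± 1.9 in GelMA and 36.4% ± 6.1 in Model. Myh4 was 17.6% ± 1.1 in PMLGH, 14% ± 0.91 in GelMA and 15.3% ± 0.8 in Model, and each PMLGH library lay above each GelMA and Model library. Myh2 ran from 2% to 2.75% in PMLGH, from 1.72% to 1.84% in GelMA and from 1.23% to 2.97% in Model, and Myh1 from 6.97% to 8.71% in PMLGH, from 7.7% to 8.59% in GelMA and from 5.52% to 11.5% in Model. Mylpf ran from 45.3% to 47.4% of Acta1 in PMLGH, from 42.9% to 47.4% in GelMA and more widely, from 44.1% to 67%, in Model. Of the 9 genes set against Acta1, Myh2, Myh4 and Actn3 were higher in every PMLGH library than in every GelMA library, and Tnnt3 was lower in every GelMA library than in every Model library. Without Model replicate 2, 5 of the 9 did not overlap between PMLGH and Model and 6 did not overlap between GelMA and Model. With a library fewer, groups overlap less readily. All these ratios share Acta1, and no share over all genes was taken, so nothing is read from these counts.

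The adult heavy chain transcripts, Myh4, Myh1, Myh2 and Myh7, were also compared as shares of their summed FPKM, Myh7 being the heavy chain of slow fibres and heart. Myh4 made up 62.1%, 62% and 63.5% in PMLGH libraries, 57.6%, 58.7% and 55.6% in GelMA libraries and 69.1%, 49.5% and 66.8% in Model libraries. Each PMLGH library lay above each GelMA library, and Model lay on either side of both because of replicate 2. Myh1 made up 28.9%, 26.1% and 27% in PMLGH libraries, 33.3%, 32.3% and 35.1% in GelMA libraries and 24.9%, 39.2% and 27.4% in Model libraries. So the share of Myh1 was lower, and that of Myh4 higher, in PMLGH than in GelMA, while Model replicates 1 and 5 alone had the highest Myh4 shares of all. Myh2 averaged 8.13% ± 1.3 in PMLGH, 7.31% ± 0.26 in GelMA and 6.96% ± 2.8 in Model, within the spread of the libraries. Myh7 averaged 2.02% ± 0.28 in PMLGH, 1.81% ± 0.14 in GelMA and 0.725% ± 0.38 in Model, and every Model library lay below every treated library.

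**Figure D3:**
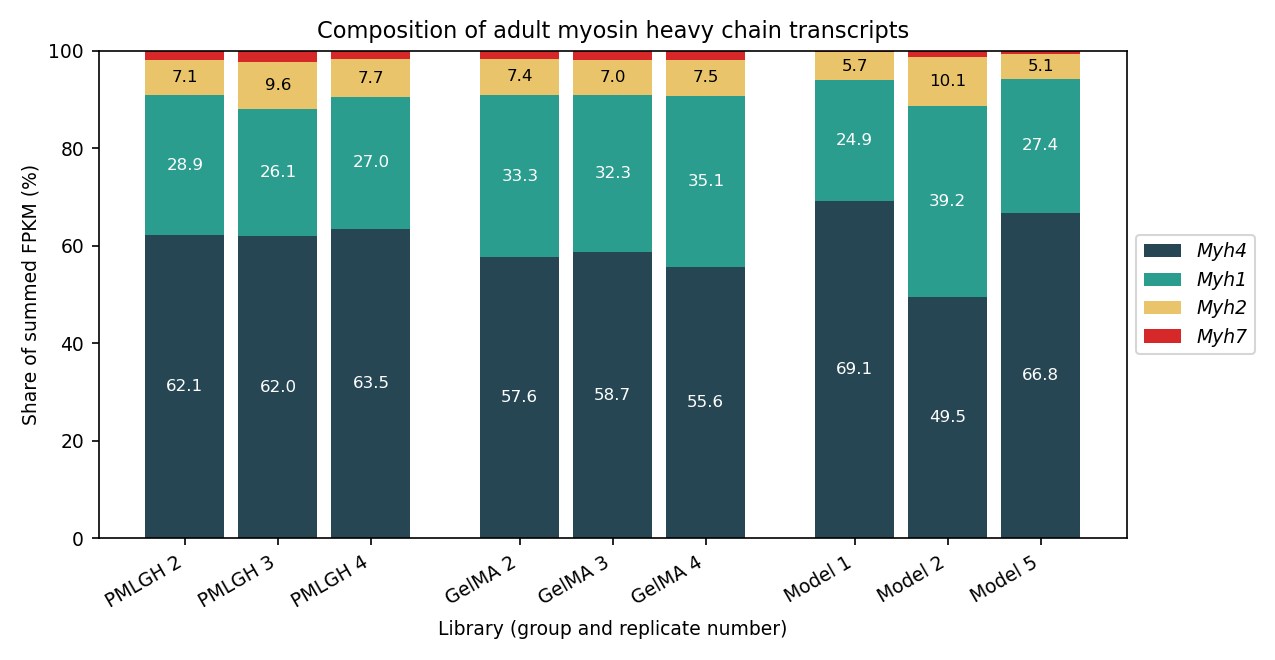
Share (%) of each adult myosin heavy chain gene in the summed FPKM of Myh4, Myh1, Myh2 and Myh7, a stacked bar per library in the order PMLGH, GelMA and Model. Myh4 is the largest part of every bar, at 49.5% in Model replicate 2 and 55.6% to 69.1% elsewhere, and Myh7 is the smallest.

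Within groups, most members lay on the same side of their group mean in 5 of the 6 treated libraries. In PMLGH replicate 4 all 10 lay above their group mean, by 0.20 on average on the log2 scale, in replicate 3, 9 of 10 lay below it, by -0.24 on average over those 9, and replicate 2 was mixed, with 6 above and 4 below. In GelMA replicate 4 all 10 lay above, again by 0.20 on average, in replicate 2 all 10 lay below, and in replicate 3, 9 lay below. In Model replicate 2 the picture was mixed: 8 members lay below the group mean and Myh1 and Myh2 lay above it, by 0.28 and 0.50. These within-group movements of about 0.2 are small beside the median of 2.05 between GelMA and Model, but not beside the 0.62 between PMLGH and Model.

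**Figure D4:**
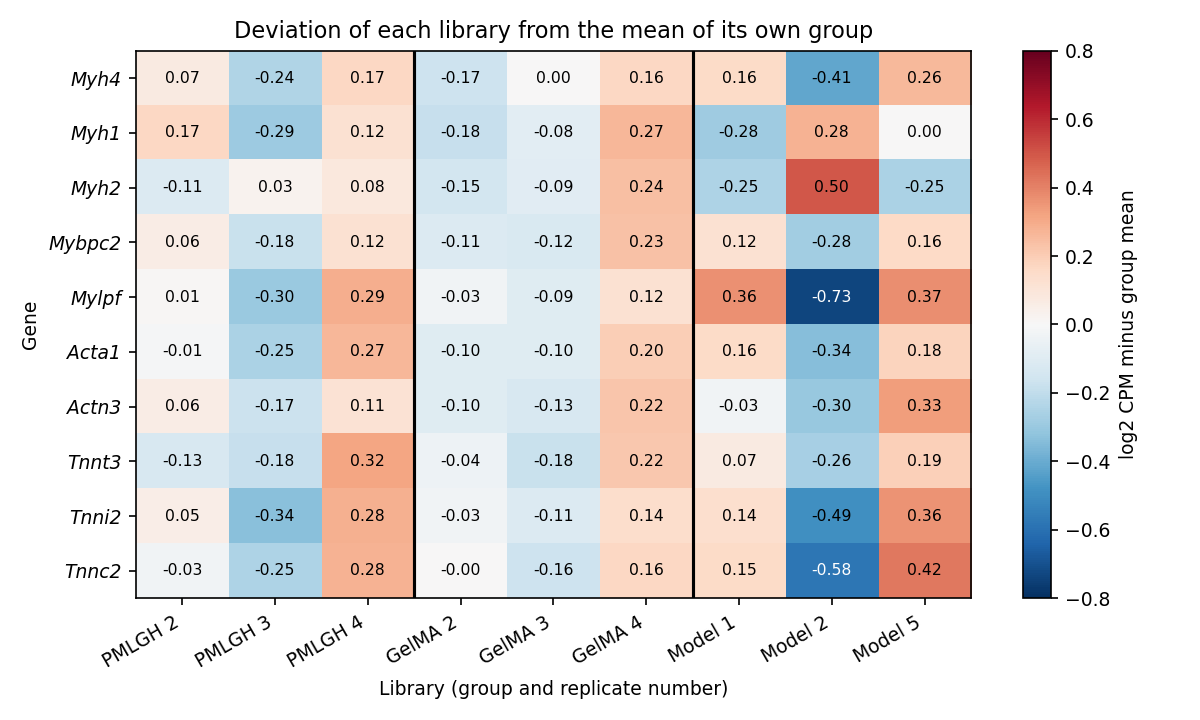
Deviation of each library from the mean of its own group (log2 CPM) for the 10 genes; red is above and blue below, with the value in each cell. Columns are nearly all of a single colour in PMLGH replicates 3 and 4 and GelMA replicates 2, 3 and 4, whereas Model replicate 2 runs from -0.73 for Mylpf to 0.50 for Myh2.

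Each member was then set against the copy of its part that slow fibres or heart use, as a log2 ratio of FPKM within a library. All 10 ratios were above 0 in all 9 libraries, the lowest being 0.17 for Mybpc2 over Mybpc1 in a Model library. In most pairs this sets a fast form above its slow or heart form. Actn2 serves all striated fibres, so Actn3 over Actn2 sets a fast form against a shared one. Acta1 over Actc1 sets the skeletal actin against the heart actin and says nothing of fibre type. The median over the 10 pairs averaged 3.73 ± 0.46 in PMLGH, 4.28 ± 0.19 in GelMA and 4.56 ± 0.45 in Model libraries (SD, n = 3 each), and PMLGH and Model libraries overlapped, through Model replicate 2 alone. Over the 9 pairs without actin the median averaged 3.48 in PMLGH, 4.22 in GelMA and 3.63 in Model, so Model no longer lay above GelMA. That shift is not particular to actin. The middle ratios of the 10 lay far apart in Model libraries, at 3.95 and 6.09 in Model replicate 1. Leaving out any pair from the upper end moves the median there in the same way.

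The heavy chains set Model apart. Myh4 over Myh7 was 4.96 ± 0.21 in PMLGH, 4.99 ± 0.11 in GelMA and 6.54 ± 1.04 in Model libraries, and Myh1 and Myh2 over Myh7 were likewise lower in every treated library than in every Model library. Myh7 itself was 7.23 ± 0.027 CPM in PMLGH, 16.4 ± 2.8 CPM in GelMA and 1.53 ± 0.72 CPM in Model libraries, with as few as 26 counts in a Model library. Its PMLGH counts were 268, 267 and 266, closer together than counting error alone, so the PMLGH SD understates the uncertainty. Myh7 rose by 2.24 ± 0.25 (log2) in PMLGH against Model (edgeR, adjusted p = 9.9e-06) and by 3.42 ± 0.24 in GelMA against Model (adjusted p = 1.7e-07). It fell by 1.19 in PMLGH against GelMA (adjusted p = 0.0037). Other slow copies were as thinly counted in Model, with lows of 6 for Actc1, 12 for Tnni1 and 18 for Myl2, so ratios over them are imprecise there.

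Without overlap between groups, PMLGH had lower ratios than Model for 4 of 10 pairs, Mylpf and the 3 over Myh7, and a higher one for Actn3 over Actn2. The pairs over Myh7 share that thinly counted denominator and are not separate observations. Without Model replicate 2, PMLGH was lower for 7 pairs. With a library fewer, groups overlap less readily, and no share over all genes was taken, so nothing is read from the counts in this paragraph. GelMA had lower ratios than Model for 3 pairs, those over Myh7, and higher ones for Tnnt3, Tnnc2 and Actn3. Without Model replicate 2 it was lower for 6 pairs and higher for the same 3 genes. PMLGH had lower ratios than GelMA for Myh1, Tnni2, Tnnc2, Mylpf and Actn3, and a higher one for Mybpc2. Tnnc2 over Tnnc1, the calcium sensor pair, was 2.72 ± 0.27 in PMLGH, 3.91 ± 0.27 in GelMA and 2.62 ± 0.82 in Model. Tnnc1, the slow and heart calcium sensor, averaged 9.77 ± 0.31 CPM in PMLGH, 11.5 ± 0.89 in GelMA and 7.6 ± 1.7 in Model libraries, and it was called in GelMA against Model (edgeR, adjusted p = 0.0069). In PMLGH against Model it was called, at 0.53 (adjusted p = 0.0051), once Model replicate 2 was left out. Actn3 over Actn2 varied little within groups, at 2.70 ± 0.08 in PMLGH, 2.83 ± 0.06 in GelMA and 2.51 ± 0.09 in Model.

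**Figure D5:**
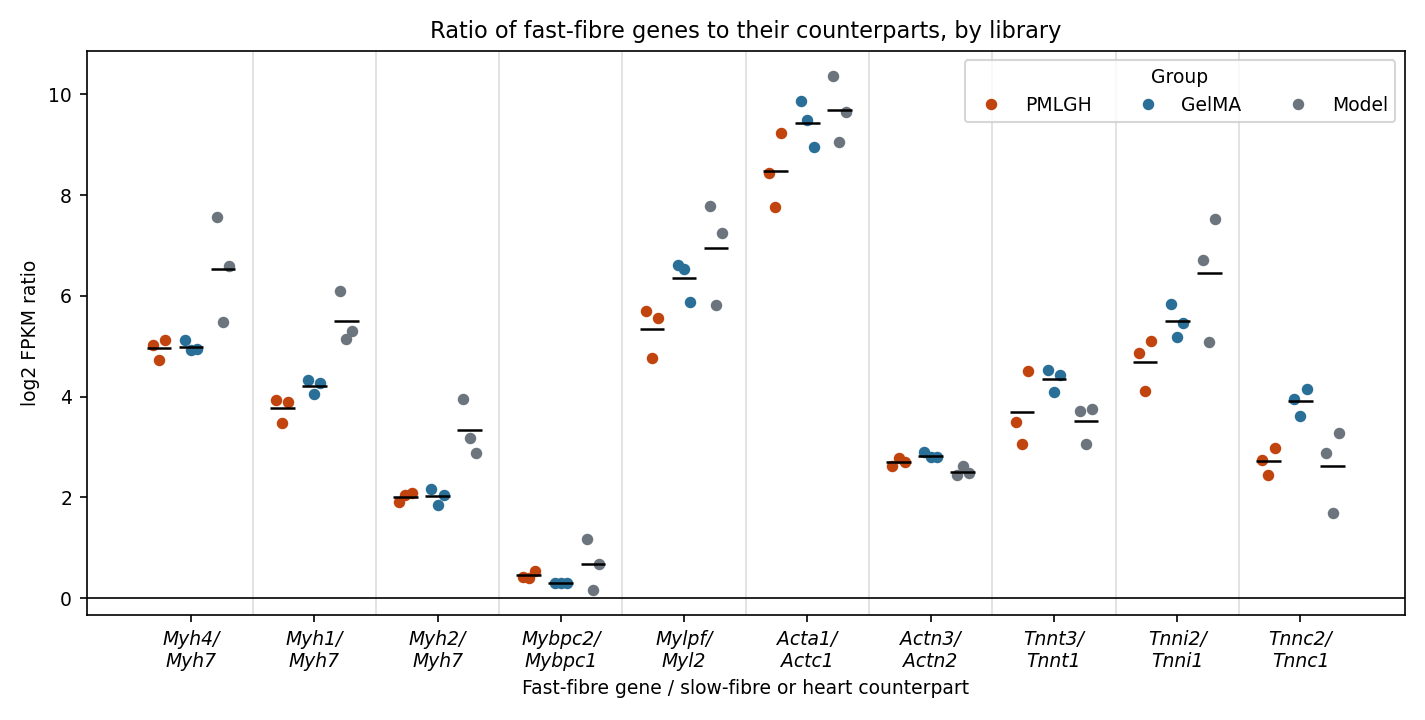
Log2 FPKM ratio of each fast-fibre gene to its slow-fibre or heart counterpart, by library, with PMLGH left, GelMA in the middle and Model right; bars are group means (n = 3). For the 3 heavy chains over Myh7 all Model points lie above the treated points, and all ratios are above 0.

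Further muscle genes were read in 6 lists, which hold 83 genes in the tables, of which 77 passed the low-count filter. They too were chosen with earlier results known. Of the 77, 44 were called for PMLGH against Model, 65 for GelMA against Model and 50 for PMLGH against GelMA. Of all genes, 27.5%, 22.6% and 3.44% were called. Without Model replicate 2 the counts were 37, 68 and 56, beside 5649, 5058 and 1021 of all 16816 genes. These totals of all genes were higher than with that library. Without that library, 10 slow-fibre, 5 calcium release and 6 other fast-fibre genes were called for PMLGH against Model, and 11, 13 and 10 for GelMA against Model. The median log2 fold changes for PMLGH against Model were then 1.22 for slow-fibre, 0.49 for calcium release and 0.26 for other fast-fibre genes. They were 0.425 for scaffold, 0.38 for energy and 1.01 for myogenic and embryonic genes. Of the lists for other tissues, 7 of 10 smooth muscle, 6 of 10 bone, 10 of 10 erythroid and 2 of 7 heart-type genes were then called for PMLGH against Model. For GelMA against Model the counts were 8, 9, 10 and 2. All tests below are edgeR's quasi-likelihood test with Benjamini-Hochberg adjustment over all genes tested.

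Of the 10 other fast-fibre genes, 5 rose and 1 fell in PMLGH against Model, 9 rose and 1 fell in GelMA against Model, and 9 fell in PMLGH against GelMA, with medians of 0.50, 1.93 and -1.40. The first median was 0.26 without Model replicate 2. The gene that fell against Model in both was Mylk2, a kinase of the fast regulatory light chain, named after its values were seen. Atp2a1, the calcium pump of fast fibres, averaged 183 ± 30 CPM in PMLGH, 503 ± 69 in GelMA and 130 ± 23 in Model libraries. It rose by 0.49 ± 0.13 in PMLGH against Model (adjusted p = 0.012), a call lost without PMLGH replicate 4, and by 1.95 ± 0.13 in GelMA against Model (adjusted p = 1.5e-07). Myl1, the essential light chain of fast myosin, averaged 78.4 ± 11 CPM in PMLGH, 218 ± 25 in GelMA and 60 ± 21 in Model libraries, and it was called in GelMA against Model (adjusted p = 6.5e-06) but not in PMLGH against Model (adjusted p = 0.14).

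Of 12 slow-fibre genes, 8 rose in PMLGH against Model, 10 rose in GelMA against Model and 3 fell in PMLGH against GelMA, with medians of 1.09, 2.17 and -0.66. The last count was 5 without Model replicate 2. Mybpc1, the slow form of myosin-binding protein C, averaged 27.5 ± 2.1 CPM in PMLGH, 84.8 ± 13 in GelMA and 15.2 ± 3.2 in Model libraries, and in PMLGH against GelMA it fell by 1.63 on the log2 scale (adjusted p = 8.3e-06). Tnni1, the slow inhibitory troponin, averaged 3.1 ± 0.49 CPM in PMLGH, 4.78 ± 1 in GelMA and 0.651 ± 0.37 in Model libraries. Myl2, the slow and heart light chain, averaged 2.75 ± 0.58 CPM in PMLGH, 3.93 ± 1.5 in GelMA and 0.75 ± 0.21 in Model libraries. Both rose in each comparison against Model and were not called in PMLGH against GelMA (adjusted p = 0.3 and 0.42). Tpm3, a tropomyosin that many other cells also use, averaged 321 ± 11 CPM in PMLGH, 319 ± 8.2 in GelMA and 296 ± 29 in Model libraries. It was not called in any comparison, but was called higher in both treated groups against Model once Model replicate 2 was left out. Tnnt1, the slow troponin T, averaged 4.91 ± 1.5 CPM in PMLGH, 7.93 ± 1 in GelMA and 3.75 ± 0.45 in Model libraries and was called higher in GelMA against Model (adjusted p = 0.0018). In PMLGH against GelMA its difference of -0.69 was not called (adjusted p = 0.087) but was without Model replicate 2 or PMLGH replicate 3, and in PMLGH against Model it was called without PMLGH replicate 4 (0.60, adjusted p = 0.037).

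Of 22 scaffold genes shared by all striated muscle, 14 rose in PMLGH against Model (9 without Model replicate 2), 19 rose in GelMA against Model and 19 fell in PMLGH against GelMA, with medians of 0.57, 1.84 and -1.23. Neb, the giant protein along the thin filament, averaged 66.5 ± 9.2 CPM in PMLGH, 155 ± 33 in GelMA and 33 ± 3.8 in Model libraries. Ttn, the elastic protein titin, averaged 56.8 ± 6.4 CPM in PMLGH, 137 ± 24 in GelMA and 42.3 ± 11 in Model libraries. Ttn was not called in PMLGH against Model and was called once Model replicate 5, GelMA replicate 2 or GelMA replicate 4 was left out. Actn2, the alpha-actinin of all striated fibres, averaged 10.9 ± 1.6 CPM in PMLGH, 25.3 ± 4 in GelMA and 7.49 ± 1.9 in Model libraries. Its call in PMLGH against Model (adjusted p = 0.032) was lost without Model replicate 2, and likewise without Model replicate 1, GelMA replicate 3, PMLGH replicate 2 or PMLGH replicate 4.

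Of 14 genes of excitation and calcium release, 6 rose in PMLGH against Model, 12 rose in GelMA against Model and 9 fell in PMLGH against GelMA, with medians of 0.62, 1.68 and -1.18. Ryr1, the calcium release channel, averaged 30.2 ± 1.3 CPM in PMLGH, 69.3 ± 9.8 in GelMA and 19.1 ± 1.3 in Model libraries, and Trdn, which anchors the release complex, 12.1 ± 1.5 CPM in PMLGH, 27.2 ± 2 in GelMA and 7.91 ± 0.99 in Model libraries. Of 11 muscle energy genes, 6 rose and Slc2a4, the insulin-responsive glucose transporter, fell in PMLGH against Model, 9 rose in GelMA against Model and 10 fell in PMLGH against GelMA, with medians of 0.59, 1.74 and -1.26. The 7 calls of the first comparison became 4 without Model replicate 2, Model replicate 5, GelMA replicate 2 or GelMA replicate 4, and 2 without PMLGH replicate 4. Slc2a4 is named here after its values were seen. Ckm, the muscle creatine kinase, averaged 151 ± 32 CPM in PMLGH, 413 ± 46 in GelMA and 103 ± 19 in Model libraries, and Pygm, the muscle glycogen phosphorylase, 68.6 ± 7.8 CPM in PMLGH, 188 ± 20 in GelMA and 45.2 ± 8.2 in Model libraries.

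Of 14 myogenic and embryonic muscle genes, 8 passed the filter. Of these, 3 rose in PMLGH against Model (1 without PMLGH replicate 3), 5 rose in GelMA against Model and 0 were called in PMLGH against GelMA, with medians of 1.07, 1.61 and -0.30. In the last comparison 4 had an unadjusted p under 0.05, and 1 was called with DESeq2 or without Model replicate 2. Pax3 was at 0 counts in all 9 libraries, and Pax7, which marks satellite cells, was at 0 in PMLGH and Model libraries. Myh3, the embryonic heavy chain that lies beside Myh2, averaged 5.9 ± 0.97 CPM in PMLGH, 3.6 ± 0.28 in GelMA and 1.2 ± 0.59 in Model libraries. Unlike the adult fast heavy chains, its PMLGH libraries all lay above its GelMA libraries. That difference of 0.71 ± 0.25 was not called in the fit of all 9 libraries (adjusted p = 0.16). It was called in 2 of 18 alternatives, both of them fits of the 6 treated libraries alone. In the fit without pairing, which was added after seeing the data, it was 0.71 (adjusted p = 0.022). Both rises of Myh3 against Model were called (adjusted p = 2.5e-05 for PMLGH and 0.0009 for GelMA). Cdh15, a cadherin of muscle precursors, averaged 12.8 ± 1.5 CPM in PMLGH, 16.2 ± 2.4 in GelMA and 10.1 ± 0.44 in Model libraries.

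By the likeness of their pattern over the 9 libraries, as Pearson r of log2 CPM with the mean standardised log2 CPM of the members, the nearest of 12854 other genes were Pygm (0.9986), Atp2a1 (0.9974), Ckm (0.9973), Klhl41 (0.9940), Tmod4 (0.9938) and Trdn (0.9936). All 6 belong to the muscle lists above. Klhl41, a sarcomere maintenance protein, averaged 9.25 ± 0.75 CPM in PMLGH, 20.4 ± 1.6 in GelMA and 6.02 ± 0.99 in Model libraries, and Tmod4, which caps thin filaments, 7.02 ± 1 CPM in PMLGH, 15.2 ± 1.8 in GelMA and 4.71 ± 0.91 in Model libraries. The r is a description, because the libraries share the group differences.

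Lists of other cell types were read the same way. Of 10 heart-type genes, 9 were in the tables and 7 were tested. Of these, only Nppa and Myl7 were at 0 counts in all 9 libraries. The list summed to at most 0.000541% of counts in PMLGH, 0.000759% in GelMA and 0.00035% in Model libraries. Of the 7 tested, 3 rose in PMLGH against Model (Actc1, Myh6 and Myl4, but 1 gene without Model replicate 1 or PMLGH replicate 3). In GelMA against Model 2 rose, Actc1 and Myh6. Myh6 is named here after its values were seen. In PMLGH against GelMA 0 were called by edgeR or DESeq2, with 1 at an unadjusted p under 0.05. Myl4, the atrial light chain, averaged 2.11 ± 0.78 CPM in PMLGH, 1.7 ± 0.61 in GelMA and 0.862 ± 0.48 in Model libraries, and Actc1, the heart actin, 0.91 ± 0.29 CPM in PMLGH, 1.4 ± 0.63 in GelMA and 0.26 ± 0.072 in Model libraries.

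Smooth muscle genes took 0.0365% to 0.0375% of counts in PMLGH, 0.0328% to 0.0361% in GelMA and 0.0193% to 0.0227% in Model libraries, with none of the 10 at 0. Of them, 7 rose in PMLGH against Model, 8 rose in GelMA against Model, and 1 rose and 1 fell in PMLGH against GelMA, where 1.80% of all genes were called higher and where leaving out any PMLGH or GelMA library left 1 call, that of Tagln being lost. Tagln, an actin-binding protein of smooth muscle, averaged 86 ± 1.5 CPM in PMLGH, 67.1 ± 1.7 in GelMA and 22.4 ± 3.5 in Model libraries. Mylk, the kinase of the smooth muscle light chain, averaged 86.1 ± 2.5 CPM in PMLGH, 84.2 ± 6.7 in GelMA and 75.8 ± 2.1 in Model libraries, and its call in PMLGH against Model was lost in 14 of 16 alternatives.

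Bone markers took 2.26% to 2.67% of counts in PMLGH, 2.25% to 2.53% in GelMA and 1.11% to 1.43% in Model libraries, and none of the 10 was at 0. Of them, 7 rose in PMLGH against Model, 10 rose in GelMA against Model and 2 fell in PMLGH against GelMA. The medians were 0.76, 0.68 and -0.01. In PMLGH against GelMA without Model replicate 2, the calls were 4 lower and 1 higher. Col1a1, the main collagen of bone, averaged 20641 ± 1596 CPM in PMLGH, 18385 ± 1109 in GelMA and 9734 ± 893 in Model libraries, and Spp1, osteopontin, 1642 ± 290 CPM in PMLGH, 2205 ± 61 in GelMA and 1566 ± 350 in Model libraries. Spp1 was called in GelMA against Model, though not without Model replicate 5, GelMA replicate 2 or GelMA replicate 3, and was not called in PMLGH against Model, where its difference of 0.07 changed sign without Model replicate 5 or PMLGH replicate 2. Marrow erythroid markers took 0.921% to 1.03% of counts in PMLGH, 0.995% to 1.04% in GelMA and 1.13% to 1.37% in Model libraries, with 10 called lower in PMLGH against Model, 9 called lower in GelMA against Model and 0 called in PMLGH against GelMA by edgeR or DESeq2, with 0 at an unadjusted p under 0.05. Of all genes tested, 11.9% were called lower in PMLGH against Model and 9.88% in GelMA against Model. Slc4a1, the red cell anion exchanger, averaged 3248 ± 187 CPM in PMLGH, 3223 ± 104 in GelMA and 4170 ± 418 in Model libraries, and Alas2, the heme synthesis enzyme of red cells, 1727 ± 68 CPM in PMLGH, 1786 ± 76 in GelMA and 2325 ± 215 in Model libraries. In PMLGH against GelMA the members differed by a median of -1.41. There the medians were -0.01 for bone, 0.01 for smooth muscle, -0.33 for heart-type and -0.02 for erythroid genes. In PMLGH against Model, where the members had a median of 0.62, the medians were 0.76 for bone, 0.87 for smooth muscle, 0.57 for heart-type and -0.42 for erythroid genes, and the heart-type median was 0.30 without Model replicate 2. In GelMA against Model, where the members had 2.05, they were 0.68, 1.19, 0.90 and -0.41 in the same order. The part of these lists in the members' differences was not tested.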

How the data were processed

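Total RNA of 9 rat tibia samples was sequenced, and groups came from the treatment label. The deposited count table holds whole-number counts per gene symbol with no scaling. Dividing counts by library totals and a fixed length returned the deposited FPKM of all 22798 genes with a count (relative tolerance 0.0001), so the authors' FPKM add no independent measurement. The submitters' processing notes name DESeq2 and R 3.2.0 with no role. Not given in the sources used here are the read aligner, the counter, the build and whether strand was used.

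Counts were tested with edgeR 4.0.16 in R 4.3.3: filterByExpr by group left 16816 genes, scaling was by TMM, and the quasi-likelihood fit took all 9 libraries with a mean for each group (6 residual degrees of freedom, common biological coefficient of variation 10.1%). Two-sided p-values were adjusted by Benjamini-Hochberg over all genes tested in each of the 3 comparisons, and adjusted p under 0.05 is called. The SE of a log2 fold change is its size over the square root of F, an approximation. The procedure was tested on simulated data. Alternatives were DESeq2 1.42.0, limma 3.58.1 on log2 FPKM with 1 or 0.1 added, other scalings, no filter, a replicate block and leaving out each library. Fold changes on the log2(FPKM + pseudocount) scale understate changes of low genes.

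The members and gene lists were chosen with earlier results of these data known. Genes named are the members, their slow-fibre or heart counterparts, the 2 genes of highest mean CPM in each of 10 other lists, and the 6 genes most alike in pattern among those with a mean of at least 1 CPM and no placeholder symbol. Cox7a1 and 1 heart gene, Nppb, were not matched in the tables. The GRCr8 RefSeq tables gave gene order and promoter windows, and all 10 members matched them.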

Additional observations from a re-analysis of the deposited data

How the results depend on the processing

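Over the 30 log2 fold changes of the members, 489 of 500 alternative values kept direction and side of the threshold. The value that reversed was Mylpf in PMLGH against Model, at -0.089 without Model replicate 2 and up to 0.383 without Model replicate 5. For PMLGH against Model, 4 members were called on log2(FPKM + 1) with no filter, where Myh1, Tnnt3, Tnni2 and Acta1 lost their calls, against 8, and 27 other muscle genes against 44. In that comparison Tnni2 also lost its call under DESeq2, and Tnnc2 gained one with no filter on low counts. Mylpf in PMLGH against GelMA lost its call on log2(FPKM + 1) with no filter. The cause of these changes was not tested. The medians ran from 0.46 to 0.75 for PMLGH against Model, from 1.86 to 2.15 for GelMA against Model and from -1.55 to -1.30 for PMLGH against GelMA.

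Genes called in PMLGH against GelMA, 578 of all genes, numbered 914 with DESeq2, 384 on log2(FPKM + 0.1), 313 on log2(FPKM + 1) with no filter, and 304 to 1021 when a library was left out. The lows of 304 to 380 came without PMLGH replicate 2, 3 or 4 or GelMA replicate 3 or 4, and 1021 came without Model replicate 2. Same-numbered PMLGH and GelMA libraries deviated from their group means with correlations of -0.00106, 0.0668 and -0.0255 over 14215 genes. For libraries of different number the correlations ran from -0.0588 to 0.0567. The check shows no sign of pairing by number, but with 3 libraries per group it cannot exclude one. Model shares only replicate 2 with either. With the replicate block 1061 genes were called, against 1062 in the same 6 libraries with no pairing, a fit added after seeing the data, as were the library-by-library values of the fast to slow ratio and its median without the actin pair, which moved to 3.627 in Model. All 10 members were called in both, and Myh3, uncalled in the fit of all libraries, was called in both too (0.703 with the block, adjusted p = 0.029).

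Among 1400 values of the other named genes, 1303 kept direction and side, 50 lost a call, 27 gained one and 20 reversed. Most calls were lost by Mylk in PMLGH against Model (14 of 16 alternatives, among them DESeq2, RLE and upper-quartile scaling and no filter), Tagln in PMLGH against GelMA (9 of 18) and Actn2 in PMLGH against Model (8 of 16). Myl4 in PMLGH against Model and Spp1 in GelMA against Model each lost 5, Actc1 lost 3, and Atp2a1, Ckm and Tmod4 lost 2 each, all 4 in PMLGH against Model. Calls were gained in PMLGH against GelMA by Tnnt1 and Spp1 (6 each), Myh3 (2) and, with the replicate block, Col1a1 (1), in PMLGH against Model by Ttn (4), Cdh15 (2), Tnnt1, Tnnc1 and Tpm3 (1 each), and in GelMA against Model by Myl4, Mylk and Tpm3 (1 each). Uncalled differences near 0 reversed in PMLGH against GelMA for Tpm3 (-0.011 with upper-quartile scaling, -0.016 on either FPKM scale, -0.008 to 0.030 with a library left out), Slc4a1 (-0.008 with upper-quartile scaling, -0.014 on either FPKM scale, -0.026 to 0.055 with a library left out), Mylk (-0.033 without GelMA replicate 2, up to 0.061) and Myl4 (-0.013 without PMLGH replicate 4, up to 0.542). Spp1 in PMLGH against Model reversed to -0.104 and -0.092 without Model replicate 5 and without PMLGH replicate 2, and reached 0.177 without PMLGH replicate 4.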
